A study of Drosophila melanogaster with 42 samples.

Results

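The 77 regions described here are enhancers annotated with a place of activity along the back-to-belly axis of the early fruit fly embryo. They are the tested regions that the authors' deposited table for gd7 marks as dorsal (19 regions), neuroectoderm (21 regions) or ventral (37 regions), of 20935 tested regions of 2114 bp each. The 18 regions marked as anterior in the same table served as a comparison. The annotation was read from the pattern and name columns, and no measured change in a mutant entered the rule. By the deposited names the tested regions are peaks of OreR, that is, places called open there. A region open only in a mutant would not be among them.

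Accessibility was measured by ATAC-seq, which reads open DNA from where the transposase Tn5 can place its adapters. The 42 libraries form 14 groups of 3, each library made from whole embryos. Wild-type OreR (Oregon-R) embryos, zld- embryos and gd7 embryos were collected in 4 windows after egg laying, 1 to 1.5 h, 1.5 to 2 h, 2 to 2.5 h and 2.5 to 3 h, from 400, 100, 40 and 40 embryos per library. Embryos labelled cic6 were collected in the last pair of windows, from 40 embryos per library. The labels give these genotypes by name only. They do not say how zld- embryos were made, and the deposited file names speak of RNAi and depletion, so some Zelda protein may have been present. Whole embryos mix all positions, so a region open in fewer nuclei and a region less open in each nucleus cannot be told apart. Nothing in the labels says whether replicates came from separate cages, so p-values measure the spread between these libraries. The comparison with OreR uses the same OreR libraries for every mutant.

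The dorsoventral axis is laid down by a gradient of nuclear Dorsal protein, a Rel-family transcription factor, which is highest in ventral nuclei. High Dorsal turns on mesoderm genes such as twi and sna, lower levels turn on genes of the neurogenic ectoderm such as sog, rho and vnd, and Dorsal silences dorsal genes such as dpp, zen and tld in the ventral part of the embryo. The gd gene encodes a protease upstream of the receptor Toll, without which Dorsal stays out of nuclei. Zelda is a maternal zinc-finger protein that binds many early enhancers and opens their chromatin, and Capicua, encoded by cic, is a repressor that also takes part in the silencing of dorsal genes by Dorsal.

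Of the 77 regions, 59 bear the name of a gene and the other 18 are numbered VT tiles. All 59 midpoints lay within 20 kb of the gene named, in a RefSeq gene table of Release 6, the same assembly as dm6, the build in the submitters' processing notes. The midpoints of 47 regions fell inside a protein-coding gene. The regions spread over the chromosome arms 2L (16 regions), 2R (17 regions), 3L (13 regions), 3R (21 regions) and X (10 regions), and they carry 66 distinct gene or tile names. Some share a locus. The regions twi_Jiang and twi_Ozdemir were separated by 1421 bp, the 2 mir-1 regions by 2598 bp, the 2 sna regions by 4538 bp, and the dorsal tile VT9677_Kvon lay 17999 bp from tup_Zeitlinger. Such neighbours are not independent examples.

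The annotated regions had high counts among the tested ones. Their median mean normalized count, 1 value for all windows of a table, was 2667 in the authors' deposited table for gd7, against 892 over all tested regions. The median region stood at percentile 94.8, and 66 of the 77 lay above percentile 80. This bears on each comparison below, because in some comparisons the fold change itself drifted with the mean normalized count. The drift at the 77 regions was largest in cic6 at 2 to 2.5 h, where the median trend value was 0.55 on the log2 scale, and in gd7 at 1.5 to 2 h, where it was 0.40. The trend is a smooth curve of the fold change against the mean normalized count over all tested regions. Values with the trend removed are therefore given as counts in zld-, and also for named regions in gd7 and cic6 whose calls changed.

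In zld- embryos dorsoventral regions of all 3 patterns were less accessible, and not 1 of the 77 was called more accessible in any window. A call is an adjusted p under 0.05 in the authors' deposited table, which was fitted and adjusted over all tested regions with 3 zld- and 3 OreR libraries per window. Called lower were 45, 38, 45 and 54 of the 77 regions in the 4 windows in order. The shares of all tested regions called lower were 15.6%, 7.49%, 13.4% and 17.1%, and called higher 10.4%, 4.66%, 7.82% and 14%. In at least 1 window 60 of the 77 regions were called lower, against 27.5% of all tested regions. In every window 27 were called lower, 8 dorsal, 7 neuroectoderm and 12 ventral, against 4.31% of all tested regions.

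By pattern, the counts of lower regions in the authors' deposited table for zld- were 11, 13, 13 and 15 of 19 dorsal regions and 10, 12, 15 and 16 of 21 neuroectoderm regions in window order. The 37 ventral regions gave 24, 13, 17 and 23 calls. Median log2 fold changes of the dorsal regions were -0.51, -0.68, -0.94 and -0.95, and those of the neuroectoderm regions were -0.55, -0.64, -0.90 and -0.87. The ventral medians were -0.63, -0.19, -0.38 and -0.62, so the ventral regions had their smallest median at 1.5 to 2 h. The median over all tested regions lay between -0.01 and 0.04. With the trend removed, the calls as lower over all windows were 52, 49 and 74 pairs of region and window for dorsal, neuroectoderm and ventral regions, against 52, 53 and 77 as deposited, and none was higher. Of all pairs of tested region and window 13.2% were then called lower and 7.64% higher. The difference between patterns was not tested. Among the 18 anterior regions 4, 9, 11 and 10 were called lower and none higher.

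**Figure D1:**
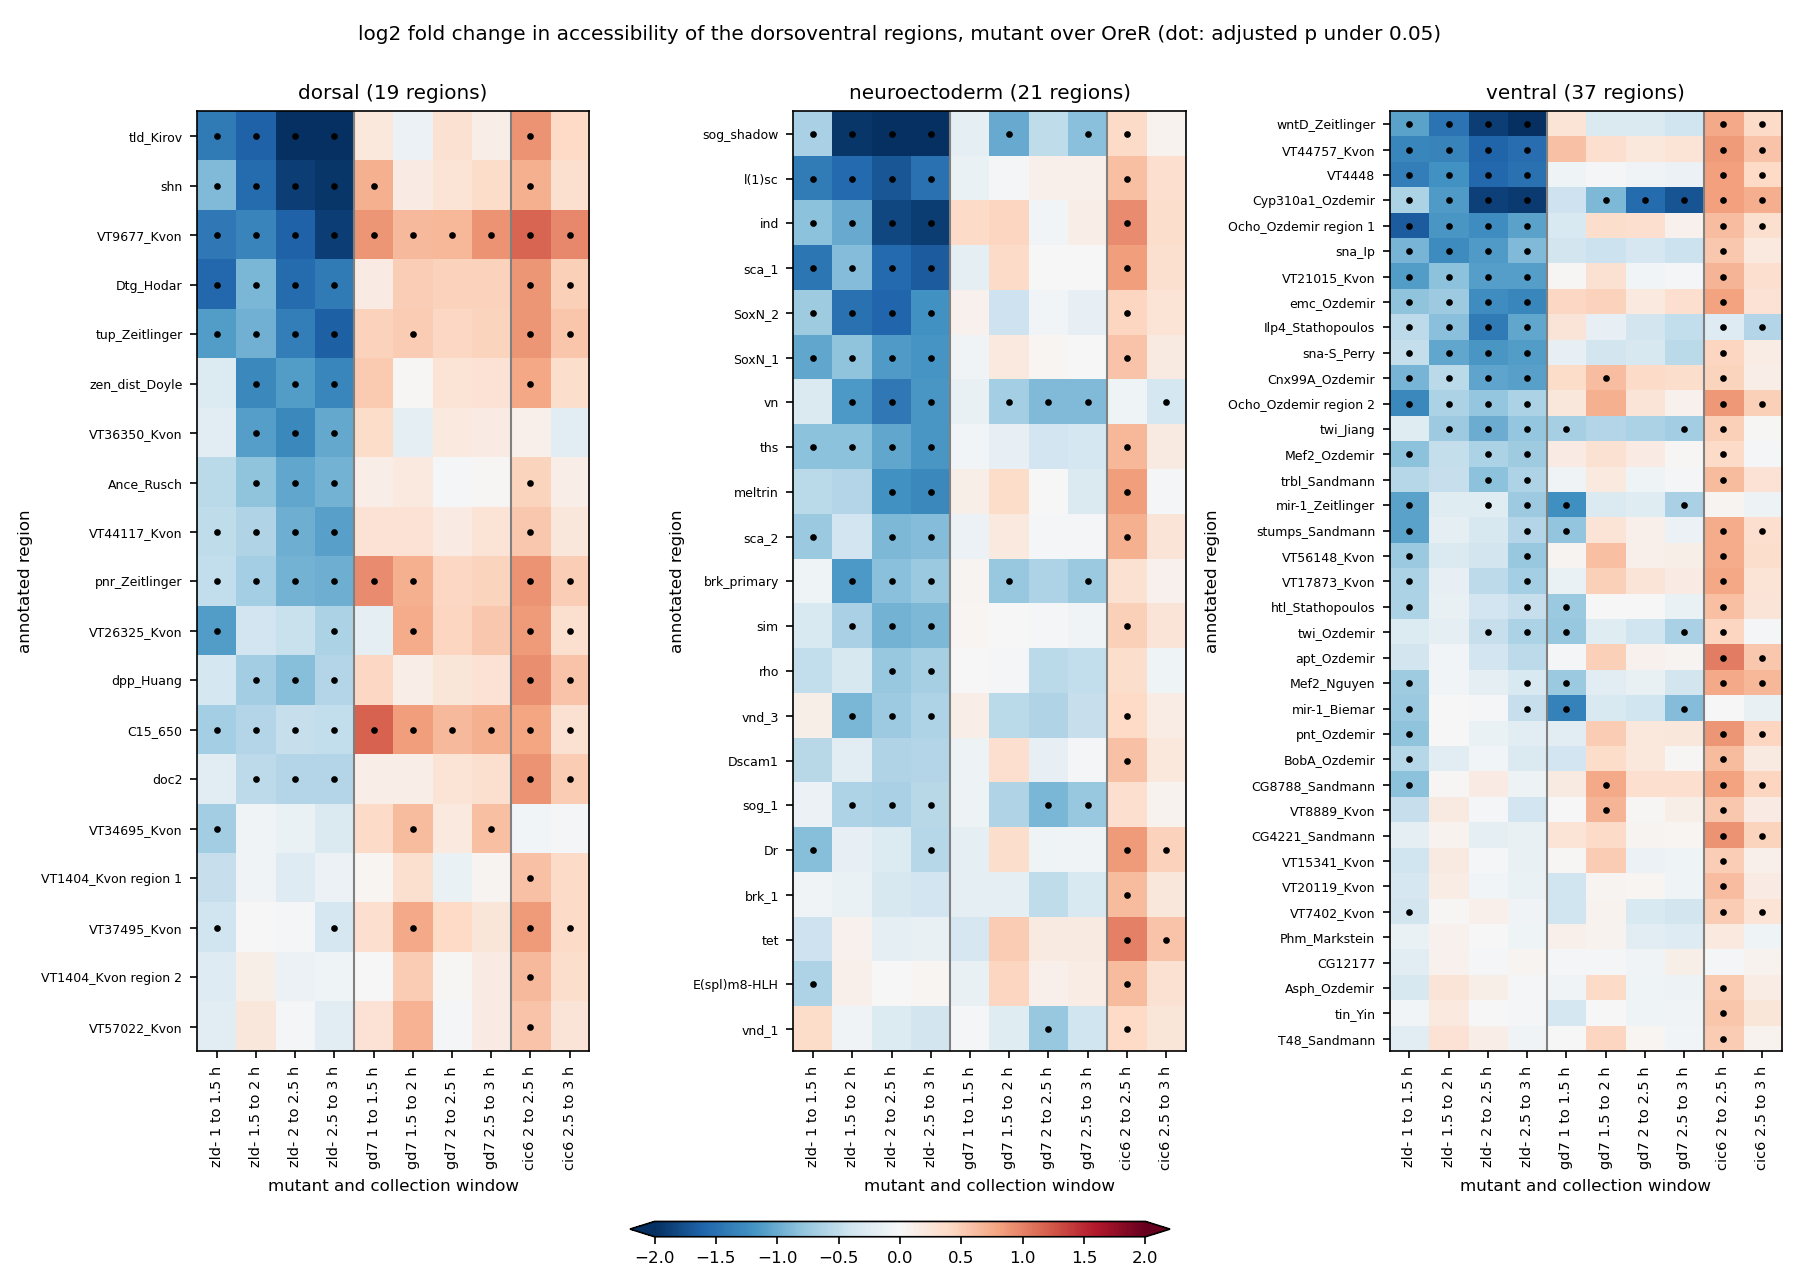
Each row is 1 annotated region and each column a mutant and window; colour gives the log2 fold change over OreR in the authors' deposited tables, blue lower and red higher, and a dot marks an adjusted p under 0.05. In zld- all dots lie on blue cells, with 45, 38, 45 and 54 of 77 regions in window order.

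The deepest losses in zld- were at regions of genes from each territory. Among dorsal regions, tld_Kirov (chr3R:24748430-24750543, dm6) lies 245 bp from tld, which encodes the protease Tolloid that frees the ligand Dpp from its inhibitor Sog. In the OreR libraries of 2.5 to 3 h its strongest peak had a fold enrichment over background of 3.65, 3.63 and 4.82, and its summit sat 0, -1 and -2 bp from the centre of the region. In the zld- libraries of that window the strongest peak in tld_Kirov had 1.73, 1.97 and 1.87, with the summit at -144, -1493 and -1240 bp. The values of the 2 groups did not overlap, but they come from peak lists called per library and are a description only. How many tested regions show such a gap between 3 and 3 libraries was not counted, here or for the peaks given below. The log2 fold change of tld_Kirov in the authors' deposited table was -1.41 ± 0.20 (SE as deposited, 3 against 3 libraries compared), -1.61 ± 0.20, -2.24 ± 0.20 and -2.27 ± 0.20 over the windows, with an adjusted p of 1.75e-28 in the last.

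Other dorsal regions fell in all 4 windows of zld-. The region shn, at the gene of the zinc-finger cofactor Schnurri of Dpp signalling, went from -0.89 ± 0.19 to -1.95 ± 0.18 between the first and the last window in the authors' deposited table. VT9677_Kvon, 14214 bp from tup, had -1.44, -1.32, -1.62 and -1.88 there, and tup_Zeitlinger, inside the gene of the LIM-homeodomain protein Tailup, had -1.12, -0.97, -1.39 and -1.63. Dtg_Hodar, beside the Dpp target gene Dtg, had -1.58, -0.91, -1.54 and -1.42. The smallest falls among the 8 dorsal regions called in every window were at pnr_Zeitlinger, in the gene of the GATA factor Pannier, at -0.50 to -0.98, and at C15_650, in the gene of a homeodomain protein of the amnioserosa, at -0.46 to -0.67. VT44117_Kvon lay between, at -0.51 to -1.08. The region of dpp itself, dpp_Huang, had -0.35 ± 0.23 in the first window, without a call, and -0.70, -0.85 and -0.58, all called, in the later ones. The strongest listed dpp_Huang peak had a median fold enrichment over all windows of 3.64 in zld- and 3.11 in OreR, against its calls as lower.

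In the neuroectoderm set the lowest was sog_shadow (chrX:15645893-15648006, dm6), 13515 bp from sog, which encodes the Dpp antagonist Short gastrulation. At 2 to 2.5 h the strongest sog_shadow peak had a fold enrichment of 5.38, 7.17 and 5.70 in OreR and 3.31, 3.01 and 2.83 in zld-. The groups did not overlap. The authors' deposited table gave log2 fold changes of -0.65 ± 0.22, -1.94 ± 0.21, -2.30 ± 0.21 and -2.03 ± 0.21, with an adjusted p of 1.24e-26 at 2 to 2.5 h. The other region of the gene, sog_1, 19107 bp away, had -0.12, -0.62, -0.65 and -0.56. The difference between the 2 sog regions was not tested. Over all windows the strongest listed sog_1 peak had a median fold enrichment of 5.42 in zld- and 4.46 in OreR, against its negative log2 fold changes. At sog_shadow the medians were 3.14 and 5.65.

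Genes of neural fate stood beside sog. The region of l(1)sc, a proneural basic helix-loop-helix gene, had in the authors' deposited table for zld- -1.39, -1.55, -1.71 and -1.50. The region of ind, which encodes a homeodomain protein of the intermediate neural column, had -0.82 ± 0.28, -1.01 ± 0.27, -1.82 ± 0.27 and -1.89 ± 0.27. A peak was listed for ind in 8 of 12 zld- libraries and in 11 of 12 OreR libraries. The regions sca_1, SoxN_2 and SoxN_1, at genes active in the neural primordium, had mean log2 fold changes over the windows of -1.38, -1.25 and -1.04, and ths, at a gene of an FGF ligand, had -0.96. The region of vn, whose product Vein is a ligand of the EGF receptor, had -0.29 ± 0.15 without a call in the first window and -1.14, -1.43 and -1.17 afterwards.

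Ventral regions were split. In the authors' deposited table for zld-, wntD_Zeitlinger (chr3R:13292852-13294965, dm6), 710 bp from the gene of a Wnt protein that feeds back on Dorsal, had -1.07 ± 0.18, -1.47 ± 0.17, -1.89 ± 0.17 and -2.32 ± 0.17, the last with an adjusted p of 1.19e-40. The tile VT44757_Kvon, inside Stat92E, had -1.30 to -1.60 and VT4448, 12293 bp from SoxN, had -1.20 to -1.58. The 2 adjoining Ocho regions, at a gene of the Bearded family of Notch inhibitors, had a mean over windows of -1.28 and -0.83. The strongest listed peak of the first had a median fold enrichment over all windows of 2.06 in zld- and 2.35 in OreR. That of the second was higher in zld-, at 3.62 and 2.69. At sna, the gene of the repressor Snail of the mesoderm, sna_Ip had -0.94, -1.26, -1.13 and -0.89 and sna-S_Perry had -0.48, -1.04, -1.17 and -1.11. VT21015_Kvon, 314 bp from CycB, had -0.82 to -1.11.

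The region of emc, a gene whose helix-loop-helix product inhibits proneural proteins, had no listed peak in most zld- libraries. A peak overlapped emc_Ozdemir in 4 of 12 zld- libraries, against 11 of 12 in OreR, 11 of 12 in gd7 and 6 of 6 in cic6. The zld- peaks of emc_Ozdemir had a fold enrichment of 1.36 and 1.59 at 1.5 to 2 h, 1.59 at 2 to 2.5 h and 1.38 at 2.5 to 3 h, in lists where their percentile was below 10. Its log2 fold change in the authors' deposited table was -0.81, -0.73, -1.25 and -1.31. The share of zld- libraries with a peak at VT44757_Kvon was 8 of 12, and every OreR library had one.

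Some ventral regions were called lower in the first window and not in the second. The authors' deposited table for zld- gave CG8788_Sandmann -0.82 ± 0.17 at 1 to 1.5 h and 0.02, 0.16 and -0.10 afterwards, and pnt_Ozdemir, in the gene of the ETS factor Pointed, had -0.80 ± 0.20 and then -0.22 or closer to 0. The regions of stumps, htl and Mef2_Nguyen, at genes of mesoderm migration and muscle, were called at 1 to 1.5 h, at -1.07, -0.63 and -0.72, not in the middle windows, and again at 2.5 to 3 h, at -0.58, -0.46 and -0.30. Phm_Markstein and CG12177 were not called in any window of any mutant. Both are ventral regions, and the authors' deposited table for gd7 gives them a mean normalized count of 1939 and 534, the latter the lowest of the 77 there.

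The first window of zld- held a library that stood apart. Replicate 3 of zld- at 1 to 1.5 h had 6831 peaks, the fewest of the 42 lists, which otherwise held 21324 to 58137. A peak overlapped 17 of the 77 regions in that list, against 58 and 75 in the other 2 replicates and 67 to 77 in OreR of that window. Over all tested regions the shares were 17.3% in that list, 50.7% and 84.5% in the other 2 replicates and 77.9% to 89.0% in OreR. The part of replicate 3 in the calls of that window or of later ones was not tested, since the deposited tables hold no values per library. The median SE of the 77 regions in zld- was nearly the same in each window, at 0.194, 0.186, 0.185 and 0.185. Whether the spread was pooled over windows is not stated in the sources used here. With the 1 to 1.5 h window left out, the calls as lower in zld- were 41 region and window pairs among 19 dorsal regions. They were 43 among 21 neuroectoderm and 53 among 37 ventral regions. Of all tested regions 7.49%, 13.4% and 17.1% were called lower in those windows in order.

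Over all libraries, a peak overlapped 95.2% ± 7.15 (SD, n = 3) of the 77 regions in OreR at 1 to 1.5 h and 99.6% or more in later OreR windows. Since the tested regions are by name OreR peaks, a high share in OreR was set in advance. The zld- groups had 64.9% ± 38.7, 94.8% ± 6.87, 98.3% ± 1.98 and 98.3% ± 1.98 in window order. Over all tested regions the mean shares with a peak were 85.0%, 94.5%, 96.1% and 94.4% in OreR. In zld- they were 50.8%, 89.2%, 89.7% and 92.1%, so the share with a listed peak was lower over all tested regions too. Those of gd7 were 76.6%, 88.6%, 94.7% and 92.6%, and those of cic6 93.7% and 91.1%. Averaged over the windows, the share in zld- minus that in OreR was -10.5 percentage points for dorsal, -9.13 for neuroectoderm and -9.23 for ventral regions, and without the 1 to 1.5 h window it was -1.75, -3.17 and -2.70. Without replicate 3 of zld- it was -4.61, -0.60 and -2.82 over all windows. The same difference for gd7 was 0.88, -1.19 and -0.90 points. Leaving out 1 replicate number gave -0.44, without OreR replicate 1, to 1.54 for dorsal and -2.98, also without OreR replicate 1, to 0 for neuroectoderm regions. All 77 regions had a peak in every cic6 library, 67 in every gd7 library, 65 in every OreR library and 15 in every zld- library. In the last window of zld- 74 to 77 of the 77 regions still had a listed peak, while 54 were called lower.

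**Figure D2:**
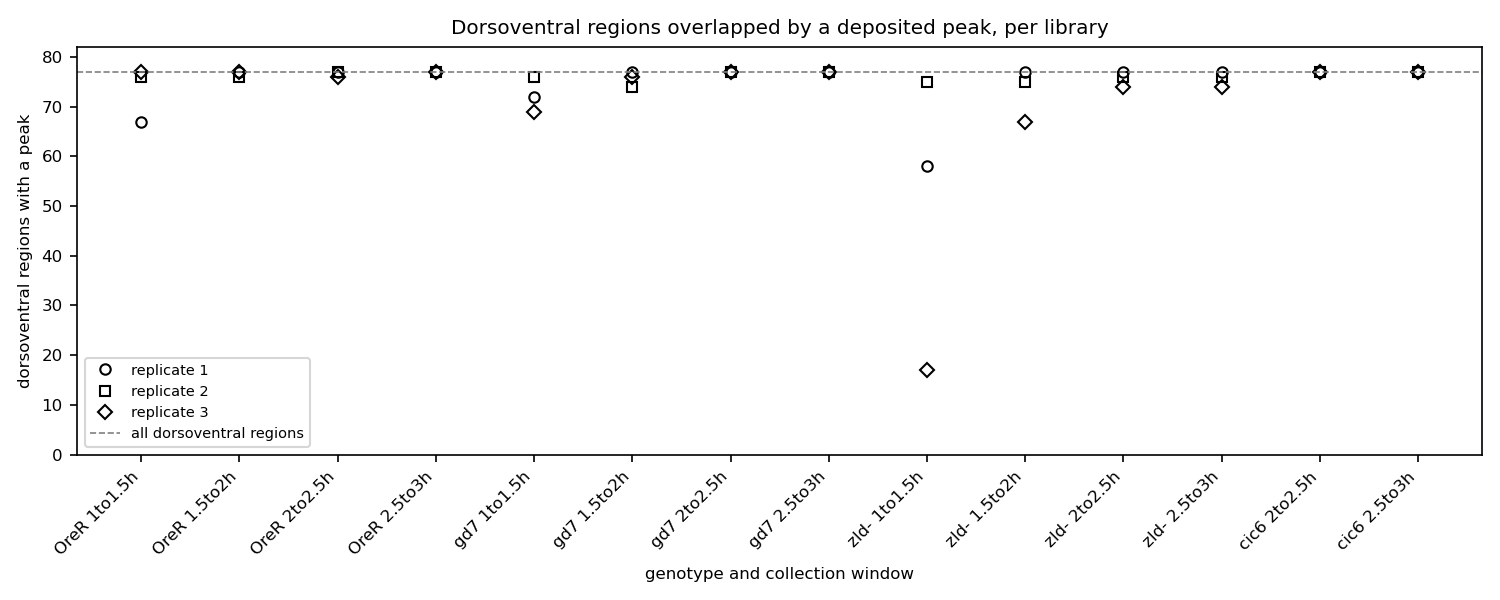
Number of the 77 dorsoventral regions overlapped by a deposited peak (y axis) in each library, by genotype and window (x axis); symbols are the 3 replicates and the dashed line marks 77. Replicate 3 of zld- at 1 to 1.5 h lies at 17, and all 6 cic6 libraries at 77.

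In gd7 embryos the patterns went different ways: calls at dorsal regions were all higher and calls at neuroectoderm regions all lower. In the authors' deposited table for gd7, with 3 gd7 and 3 OreR libraries per window, 4, 7, 2 and 3 of the 19 dorsal regions were called higher in window order and none lower. Of the 21 neuroectoderm regions 0, 3, 3 and 4 were called lower and none higher. Of the 37 ventral regions 7, 1, 1 and 5 were called lower and 3, all at 1.5 to 2 h, higher. The shares of all tested regions called lower were 4.01%, 7.47%, 3.45% and 8.19%, and called higher 4.47%, 7.86%, 2.09% and 3.81%.

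Counted once per region, 8 of 19 dorsal regions were called higher in at least 1 window of gd7, against 12.6% of all tested regions. Called lower in at least 1 window were 5 of 21 neuroectoderm and 8 of 37 ventral regions, against 13.2%. Median log2 fold changes in the authors' deposited table were 0.34, 0.50, 0.27 and 0.30 for dorsal regions, -0.10, -0.02, -0.08 and -0.17 for neuroectoderm regions and -0.07, 0.28, -0.05 and -0.06 for ventral regions. With the trend against mean normalized count removed, the dorsal medians stayed above 0, at 0.08 to 0.26, and the ventral median at 1.5 to 2 h became -0.11. Of the 18 anterior regions 1 was called lower in each window but the first, and 1 was called higher, at 1.5 to 2 h.

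The trend bears on how many regions were called. Over all windows the 16 calls of dorsal regions as higher became 7 after its removal, with 1 call as lower, VT36350_Kvon at 1.5 to 2 h. The 10 calls of neuroectoderm regions as lower became 14 and the 14 of ventral regions became 24, while the 3 ventral calls as higher became 0. Of all pairs of tested region and window in gd7, 5.06% were then called lower and 3.4% higher. Without the 1 to 1.5 h window, the ventral calls as lower were 7.

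**Figure D3:**
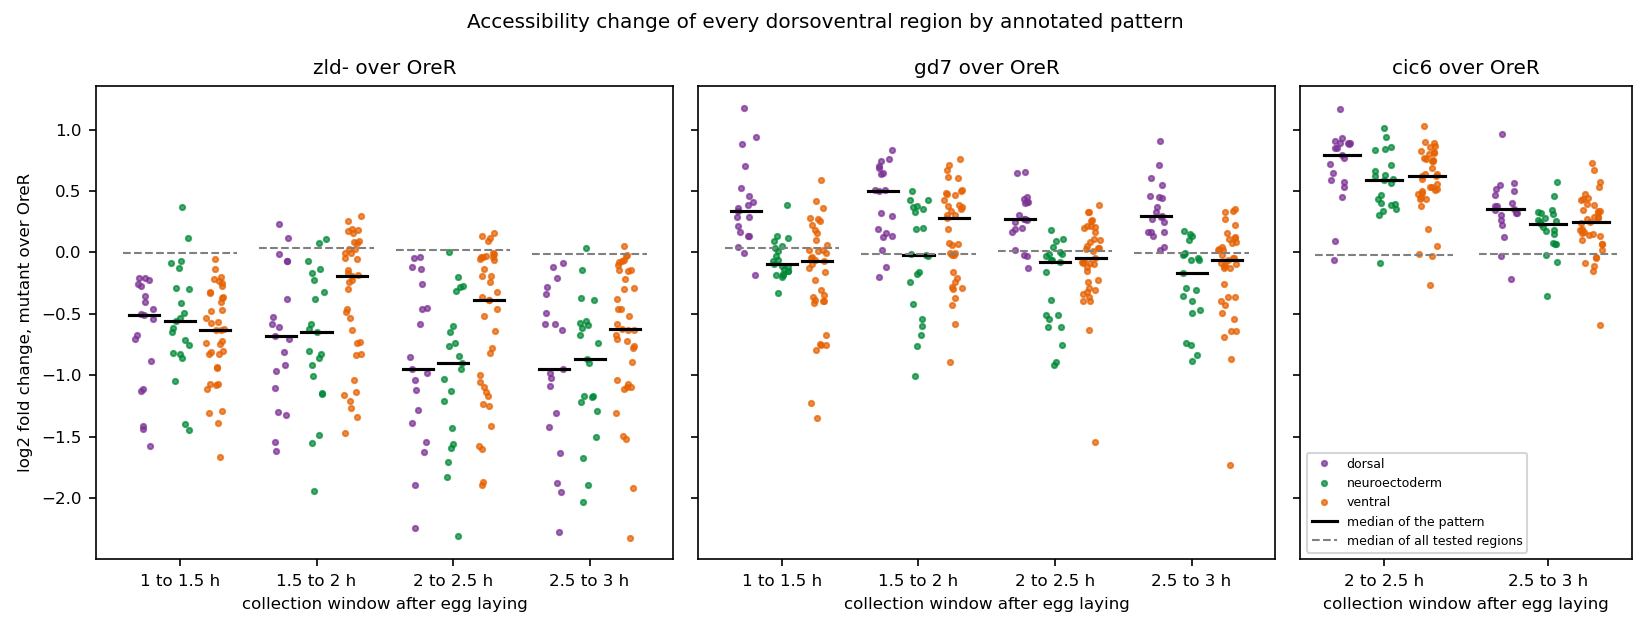
Points are the 77 regions, coloured by annotated pattern, with their log2 fold change over OreR (y axis) in each window (x axis) of the 3 mutants; short black lines are pattern medians and dashed lines the median of all tested regions. The dorsal median lies above the dashed line in every gd7 window, at 0.27 to 0.50, and below it in every zld- window.

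Among dorsal regions 2 were called higher in every gd7 window, against 0.955% of all tested regions. C15_650 (chr3R:21505395-21507508, dm6) lies inside C15. At 1 to 1.5 h the strongest peak in C15_650 had a fold enrichment of 2.47, 3.55 and 3.54 in OreR and 4.11, 4.30 and 4.78 in gd7, so every gd7 value was above every OreR value. The median over all dorsal regions was also higher in gd7 in that window, at 3.60 against 2.96 in OreR. For neuroectoderm regions the medians were 4.18 and 3.44, and for ventral regions 3.64 and 3.66. The authors' deposited table gave C15_650 log2 fold changes of 1.18 ± 0.21, 0.84 ± 0.21, 0.65 ± 0.21 and 0.72 ± 0.21, with adjusted p of 2.18e-06, 0.00188, 0.041 and 0.00934. The values at 1.5 to 2 h and 2 to 2.5 h became 0.53 and 0.59 with the trend removed and were no longer called.

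VT9677_Kvon (chr2L:18894419-18896532, dm6) was the other. In the authors' deposited table for gd7 it had 0.88 ± 0.19, 0.65 ± 0.19, 0.66 ± 0.19 and 0.91 ± 0.19, with an adjusted p of 0.0105 or below. Its value at 1.5 to 2 h with the trend removed was 0.23, without a call, and the other windows were called. The nearest annotated dorsal region, tup_Zeitlinger, had 0.46, 0.51, 0.41 and 0.45, of which the second was called, and that call was lost with the trend removed. The strongest tup_Zeitlinger peak had a median fold enrichment over all windows of 3.90 in gd7 and 4.60 in OreR. At VT9677_Kvon the medians were 4.43 and 3.97.

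Other dorsal regions were called in gd7 in 1 or 2 windows of the authors' deposited table. The region of pnr was called higher at 1 to 1.5 h, at 0.94 ± 0.25, and at 1.5 to 2 h, at 0.71 ± 0.25. VT34695_Kvon, inside olf413, was higher at 1.5 to 2 h and 2.5 to 3 h, at 0.64 and 0.61. VT37495_Kvon, inside pb, and VT26325_Kvon were higher at 1.5 to 2 h, at 0.76 and 0.75, and shn at 1 to 1.5 h, at 0.70. Of these 7 calls 2 were kept with the trend removed, pnr at 1 to 1.5 h, at 0.83, and VT37495_Kvon at 1.5 to 2 h, at 0.49. The regions named for the BMP ligand dpp, for zen and for tld were not called in any gd7 window. Their largest values were 0.41 for dpp_Huang, 0.53 for zen_dist_Doyle and 0.31 for tld_Kirov, with standard errors of 0.23, 0.33 and 0.23.

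Among neuroectoderm regions the calls in gd7 were at vn, sog, brk and vnd. The region of vn had -0.15 ± 0.18, -0.67 ± 0.17, -0.89 ± 0.17 and -0.88 ± 0.17 in the authors' deposited table, called in the last 3 windows, and a peak was listed for vn in 10 of 12 gd7 libraries. The 2 sog regions were both called: sog_shadow had -0.17, -1.01, -0.51 and -0.83, called at 1.5 to 2 h and 2.5 to 3 h, and sog_1 had -0.11, -0.60, -0.92 and -0.75, called in the last 2 windows and, with the trend removed, also at 1.5 to 2 h, at -0.92. At brk, which encodes a repressor of Dpp targets, brk_primary had 0.05, -0.76, -0.61 and -0.74, called at 1.5 to 2 h and 2.5 to 3 h, and with the trend removed also at 2 to 2.5 h, at -0.67. The other brk region, brk_1, 21615 bp away, was not called and had -0.20, -0.17, -0.51 and -0.31.

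The strongest brk_primary peak at 1.5 to 2 h had a fold enrichment of 3.56, 3.21 and 3.47 in OreR and 1.80, 2.08 and 1.77 in gd7, with no overlap of the groups. Over all windows, the median of the listed peaks was 2.19 in gd7 and 3.52 in OreR at brk_primary, and 2.66 and 3.42 at vn. At the other called regions the median was higher in gd7. The values were 6.48 and 4.46 at sog_1, 6.20 and 5.65 at sog_shadow and 2.54 and 2.46 at vnd_1. For vnd, which encodes a homeodomain protein of the ventral neural column, vnd_1 was called at 2 to 2.5 h, at -0.75 ± 0.19 in the authors' deposited table, and a peak was listed for vnd_1 in 8 of 12 gd7 libraries and 11 of 12 OreR libraries. The neighbouring vnd_3 had 0.13, -0.54, -0.60 and -0.47 without a call, and with the trend removed it was called at 1.5 to 2 h, at -0.87. The region of rho, which encodes the protease Rhomboid that activates EGF receptor ligands, had 0.01, -0.03, -0.54 and -0.49, also without a call. The remaining regions, among them ind, l(1)sc, the sca and SoxN regions and Dr, were not called as deposited in gd7 in any window, and with the trend removed SoxN_2 was called at 1.5 to 2 h, at -0.80.

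The largest change of a ventral region in gd7 was at Cyp310a1_Ozdemir (chr2L:18651553-18653666, dm6), inside a cytochrome P450 gene. At 2 to 2.5 h the strongest peak in Cyp310a1_Ozdemir had a fold enrichment of 3.57, 5.14 and 3.92 in OreR, 2.70, 2.36 and 2.39 in gd7, 2.95, 2.68 and 2.69 in zld- and 9.41, 6.86 and 7.93 in cic6. The OreR values lay between those of cic6 and those of the other mutants, without overlap, but the median over all ventral regions was also higher in cic6 in that window, at 5.84 against 3.17 in OreR. The deposited log2 fold change of Cyp310a1_Ozdemir in cic6 at 2 to 2.5 h was 0.82, and with the trend removed it was 0.23, without a call. The authors' deposited table for gd7 gave -0.41 ± 0.16, -0.89 ± 0.16, -1.54 ± 0.16 and -1.73 ± 0.16, called from the second window on, with an adjusted p of 5.89e-25 in the last, and with the trend removed also in the first, at -0.47. In zld- the same region had -0.63, -1.13, -1.87 and -1.92, all called.

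Regions of mesoderm and muscle genes were called lower in gd7 in the first window, and some of them in the last window too. The mir-1 regions, upstream of the gene of a muscle microRNA, had the lowest values then. At 1 to 1.5 h a peak was listed for mir-1_Biemar in 3 of 3 OreR libraries, with a fold enrichment of 3.77, 3.94 and 3.72, and in 1 of 3 gd7 libraries, with 2.25. In the authors' deposited table for gd7, mir-1_Biemar had -1.35 ± 0.14, -0.30 ± 0.14, -0.40 ± 0.14 and -0.87 ± 0.14 over the windows, and mir-1_Zeitlinger had -1.22 ± 0.11, -0.28 ± 0.11, -0.24 ± 0.11 and -0.64 ± 0.11. Both were called in the first and last window, with adjusted p of 4.45e-18 and 1.41e-24 in the first. In zld- mir-1_Biemar and mir-1_Zeitlinger had -0.75 and -1.07 in the first window, against the same OreR libraries. The part of those shared libraries in the first-window values was not tested.

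The regions of Mef2, htl and stumps, which encode a muscle transcription factor, an FGF receptor of the mesoderm and its adaptor, were called at 1 to 1.5 h of gd7 in the authors' deposited table. Mef2_Nguyen had -0.74 ± 0.14, htl_Stathopoulos -0.75 ± 0.15 and stumps_Sandmann -0.80 ± 0.16. In zld- they had -0.72, -0.63 and -1.07 in that window, against the same OreR libraries. In later windows of gd7 the 3 regions lay between -0.36 and 0.28 and were not called. With the trend removed Mef2_Nguyen was called in gd7 at 2.5 to 3 h, at -0.42. At twi, twi_Jiang had -0.67, -0.58, -0.63 and -0.69 and twi_Ozdemir had -0.75, -0.24, -0.40 and -0.64, both called in the first and last window. Removal of the trend left twi_Jiang called in all 4 windows, at -0.70 to -0.98. The strongest twi_Jiang peak had a median fold enrichment over all windows of 4.19 in gd7 and 3.34 in OreR, against its calls as lower. At twi_Ozdemir the medians were 2.22 and 2.53. The sna regions were not called as deposited, at -0.34 to -0.43 for sna_Ip and -0.16 to -0.54 for sna-S_Perry. With the trend removed both were called lower at 1.5 to 2 h and 2.5 to 3 h. Their strongest peaks went against these calls. The medians over all windows were 4.97 in gd7 and 3.56 in OreR at sna_Ip, and 4.89 and 3.90 at sna-S_Perry.

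The 3 ventral regions called higher in gd7 at 1.5 to 2 h were CG8788_Sandmann, at 0.76 ± 0.24, VT8889_Kvon, at 0.67 ± 0.23, and Cnx99A_Ozdemir, at the gene of the chaperone calnexin, at 0.61 ± 0.23, in the authors' deposited table. They had 0.35, 0.25 and 0.22 with the trend removed and none was called.

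**Figure D4:**
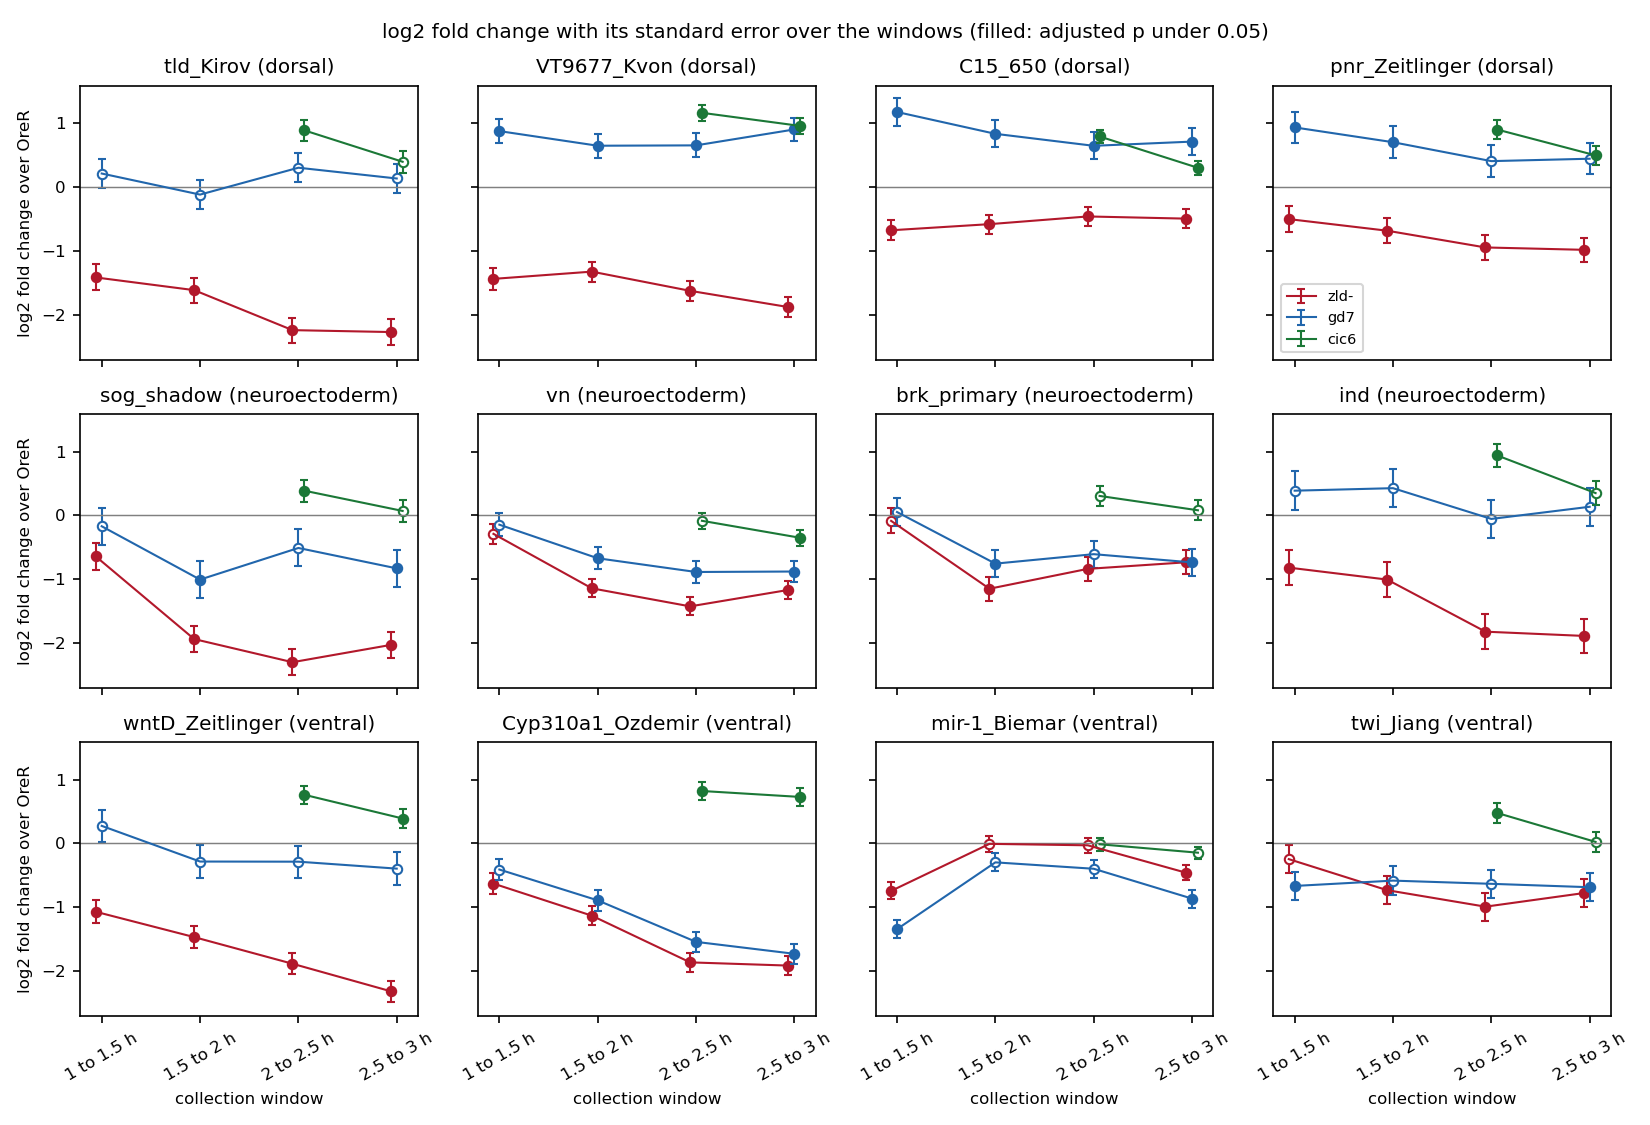
log2 fold change over OreR with its SE (y axis) in each window (x axis) for 4 dorsal, 4 neuroectoderm and 4 ventral regions; red is zld-, blue gd7 and green cic6, and filled points have an adjusted p under 0.05. Cyp310a1_Ozdemir reaches -1.92 in zld- and -1.73 in gd7 and is above 0 in cic6, and mir-1_Biemar is lowest in the first window of gd7, at -1.35.

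In cic6 embryos 66 of the 77 dorsoventral regions were called higher as deposited in at least 1 window, and most of these calls were lost when the drift of fold change with mean normalized count was removed. In the authors' deposited table for cic6, with 3 cic6 and 3 OreR libraries per window, 66 of the 77 regions were called higher at 2 to 2.5 h and 24 at 2.5 to 3 h. The calls as higher were 17 and 9 of 19 dorsal, 17 and 2 of 21 neuroectoderm and 32 and 13 of 37 ventral regions. Of all tested regions 26.2% and 14% were called higher and 22.8% and 13.7% lower. Of all tested regions 28.4% were called higher in at least 1 window and 11.8% in both, against 66 and 24 of the 77. The anterior regions had 14 and 9 of 18 called higher.

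Removal of the trend left 9 and 5 of the 77 regions called higher and 3 and 3 called lower. Of all pairs of tested region and window, 12.1% were then called higher and 11% lower. The deposited medians of 0.80 and 0.35 for dorsal regions became 0.19 and 0.10. The deposited ventral medians of 0.62 and 0.25 became 0.08 and 0.04, and the neuroectoderm medians of 0.59 and 0.23 changed sign, to -0.02 and -0.05. Whether the trend is a property of the embryos or of the libraries was not tested.

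**Figure D5:**
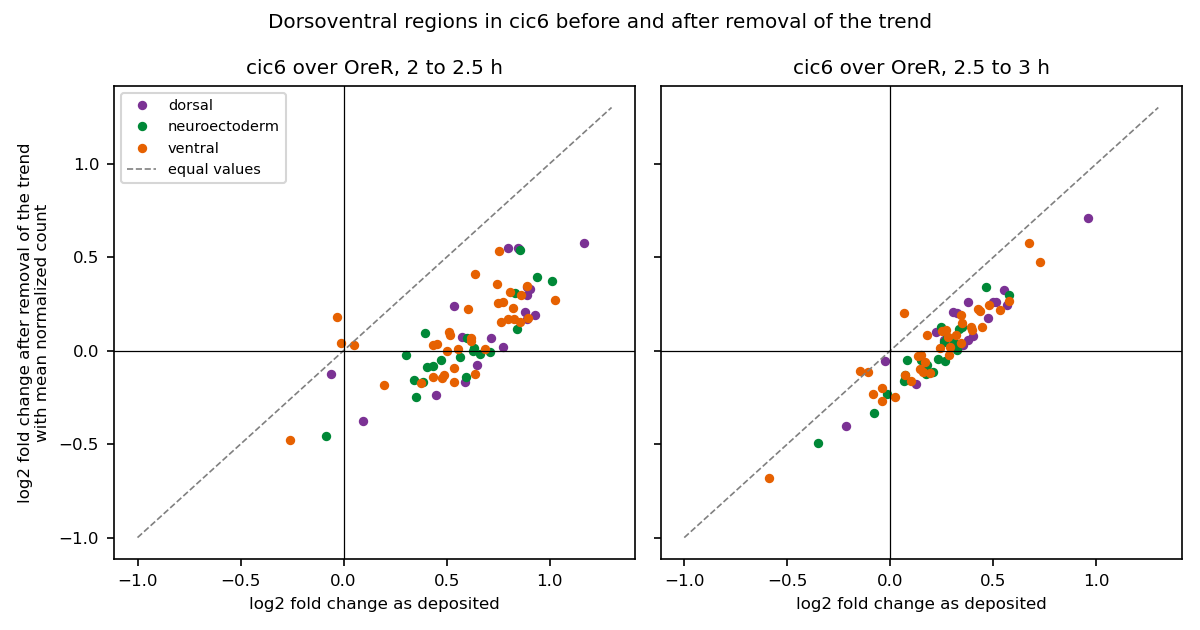
log2 fold change of the 77 regions in cic6 as deposited (x axis) and after removal of the trend with mean normalized count (y axis) in both windows; the dashed line marks equal values. Nearly all points lie below the line, and those called higher numbered 66 before and 9 after at 2 to 2.5 h, and 24 before and 5 after at 2.5 to 3 h.

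Regions that were called higher in cic6 both as deposited and with the trend removed were led by VT9677_Kvon. It had 1.17 ± 0.13 and 0.96 ± 0.13 in the authors' deposited table, with adjusted p of 2.01e-17 and 6.32e-12, and 0.58 and 0.71 with the trend removed, called in both windows. The neighbouring tup_Zeitlinger had 0.89 and 0.55 as deposited and 0.34 and 0.32 with the trend removed, called in both. Mef2_Nguyen, a ventral region, had 0.76 and 0.67 as deposited and 0.53 and 0.58 with the trend removed. Dr, the gene of the homeodomain protein of the lateral neural column, had 0.85 and 0.46 as deposited and 0.54 and 0.34 with the trend removed.

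At 2 to 2.5 h C15_650, VT26325_Kvon and VT37495_Kvon had 0.80, 0.85 and 0.85 in the authors' deposited table for cic6 and 0.55, 0.54 and 0.55 with the trend removed, called both ways. The ventral regions BobA_Ozdemir and stumps_Sandmann, at 0.64 and 0.75 as deposited and 0.41 and 0.36 with the trend removed, completed the 9 regions of that window. Cyp310a1_Ozdemir had 0.82 ± 0.13 and 0.73 ± 0.13 as deposited, and 0.48 with the trend removed in the last window, called both ways there. The regions of dpp, doc2, pnr and Dtg had 0.93, 0.89, 0.90 and 0.88 at 2 to 2.5 h as deposited and were no longer called with the trend removed. The same held for apt_Ozdemir, at 1.03, and tet, at 1.01, the highest deposited values of the ventral and neuroectoderm regions.

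In cic6, 2 regions were called lower in the authors' deposited table. Ilp4_Stathopoulos, 300 bp from the gene of an insulin-like peptide of the mesoderm, had -0.26 ± 0.11 and -0.59 ± 0.11, with adjusted p of 0.0412 and 3.73e-06. The region of vn had -0.09 ± 0.13 and -0.35 ± 0.13, the latter with an adjusted p of 0.0236. With the trend removed Ilp4_Stathopoulos had -0.48 and -0.68 and vn -0.46 and -0.50, all called. VT36350_Kvon, a dorsal tile inside CG31522, was added by the removal of the trend, at -0.38 and -0.40.

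The values of the 3 mutants at the same regions share the OreR libraries and are given side by side without a test. VT9677_Kvon had a mean log2 fold change in the authors' deposited tables of -1.57 over the 4 windows of zld- and 0.77 over those of gd7, and 1.06 over the 2 windows of cic6. Cyp310a1_Ozdemir had -1.39 and -1.15 over the 4 windows of zld- and gd7 and 0.77 over the 2 of cic6. The dorsal and the ventral region with the deepest losses in zld-, tld_Kirov and wntD_Zeitlinger, were called higher in the authors' deposited table for cic6 at 2 to 2.5 h, at 0.89 and 0.76. Neither was called there with the trend removed, at 0.17 and 0.15.

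The log2 fold change in zld- differed between the last and the first window at 9 of the 77 regions by a two-sided Wald test with Benjamini-Hochberg adjustment over all tested regions. At 8 regions the last window was lower, 4 dorsal, 2 neuroectoderm and 2 ventral, and at 1 ventral region it was higher, against 4.76% and 5.44% of all tested regions. The 8 were sog_shadow, Cyp310a1_Ozdemir, wntD_Zeitlinger, shn, zen_dist_Doyle, vn, tld_Kirov and VT36350_Kvon, with differences of -0.80 to -1.39 on the log2 scale between the deposited values. In gd7 1 region was lower in the last window, Cyp310a1_Ozdemir, and 1 was higher, mir-1_Zeitlinger, against 0.793% and 0.306%. In cic6 1 region was lower in the later window, meltrin, and none higher, against 0.115% and 0.0334%.

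Other tested regions at genes of the axis were counted apart from the 77, within 10 kb of 66 genes on 4 lists. At 23 genes of the dorsal ectoderm, 108 such regions had 11, 27, 5 and 21 calls as higher in gd7 in window order in the authors' deposited table, which is 10.2%, 25.0%, 4.63% and 19.4%, against 4.47%, 7.86%, 2.09% and 3.81% of all tested regions. With the trend removed, 25 of 432 pairs of region and window at dorsal ectoderm genes were called higher, 5.79% against 3.4% of all pairs, and 14 were called lower. At 14 mesoderm genes, 78 regions had 7, 6, 3 and 12 calls as lower, which is 8.97%, 7.69%, 3.85% and 15.4%, against 4.01%, 7.47%, 3.45% and 8.19% of all tested regions, and 0, 8, 0 and 1 as higher. Removal of the trend left 25 of 312 mesoderm pairs lower, 8.01% against 5.06%, and 3 higher. The lists of neurogenic ectoderm and Toll pathway genes lay near or below the background in gd7: 12 of 292 and 13 of 296 pairs were called lower as deposited, and 12 and 12 with the trend removed, which is 4.11% and 4.05% against 5.06% of all pairs.

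In zld- these regions outside the 77 were called in both directions. The authors' deposited table gave 45, 16, 30 and 29 of 108 lower at dorsal ectoderm genes, which is 41.7%, 14.8%, 27.8% and 26.9%, against 15.6%, 7.49%, 13.4% and 17.1% of all tested regions. Called higher were 5, 4, 6 and 15, against 10.4%, 4.66%, 7.82% and 14% of all tested regions. With the trend removed, 25.9% of the dorsal ectoderm pairs, 19.6% of the mesoderm pairs, 17.5% of the neurogenic ectoderm pairs and 13.2% of the Toll pathway pairs were lower, against 13.2% of all pairs. The shares called higher were 5.09%, 5.77%, 3.42% and 3.72% in the same order, against 7.64%.

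In cic6 the calls at the gene lists also changed with the trend. As deposited, 62 of 108, 27 of 78, 31 of 73 and 20 of 74 regions were called higher at 2 to 2.5 h at dorsal ectoderm, mesoderm, neurogenic ectoderm and Toll pathway genes, against 26.2% of all tested regions, and 5, 7, 8 and 11 were called lower. At 2.5 to 3 h 39, 21, 8 and 13 were higher and 5, 10, 18 and 4 lower. The higher calls that the removal of the trend left were 23, 11, 6 and 8 in the earlier window, and 27, 15, 2 and 12 in the later one. Over both windows that is 23.1% of the dorsal ectoderm pairs, 16.7% of the mesoderm pairs, 5.48% of the neurogenic ectoderm pairs and 13.5% of the Toll pathway pairs, against 12.1% of all pairs. The shares called lower with the trend removed were 2.78%, 10.9%, 11.6% and 7.43% in the same order, against 11%.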

How the data were processed

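The 42 libraries were grouped by the genotype and window in their titles. The submitters' processing notes name Bowtie2 2.3.5.1, Picard 2.23.8, MACS2 2.2.7.1, DESeq2 and the build dm6. Their settings, and whether reads were shifted for Tn5, were not given in the sources used here.

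Of the deposited files, 3 tables, named after DESeq per the file names, give for 20935 regions and each window the authors' mean normalized count (a signal, the same in all windows of a table), the log2 fold change against OreR and its standard error, a Wald statistic (a score), and the p-value before and after adjustment. Adjusting the deposited p-values by Benjamini and Hochberg per window gave the deposited adjusted values to within 2.18e-07. For gd7, 7 regions per window lacked a p-value, none of them among the 77. The test planned for counts per library was not run because the tables hold comparisons, and the depth per library is unknown. The deposited peak lists, called by the authors per library, give per peak a score, a fold enrichment (a ratio) and the −log10 of a p-value and a q-value, which is at least 1.30. A list grows with depth as well as with accessibility. Peaks were matched to regions at an overlap of at least 1 bp, and the highest fold enrichment in a region was taken.

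Computed here with Python 3.11.15, numpy 2.4.6, pandas 2.3.3, scipy 1.17.1 and matplotlib 3.10.9 were counts of calls at an adjusted p under 0.05, medians, Wald tests between windows and a trend of the log2 fold change against the log2 mean normalized count. The trend was a lowess curve with a span of 0.2, subtracted before p was recomputed by the Wald ratio and adjusted over all regions. The tests were tried on simulated data. Gene names come from a RefSeq table of Release 6. Sequence motifs were not analysed here, as no genome was used.

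The members, the gene lists and the tests were chosen with earlier results of these data known. Named regions are, per pattern, mutant and direction, up to 8 by windows called and then by mean log2 fold change, up to 4 with opposite calls in 2 mutants, and up to 3 per pattern without a call. Other regions, such as dpp_Huang, zen_dist_Doyle, rho, vnd_3, brk_1, BobA_Ozdemir and neighbours of named regions, were named after their values were seen. The genotypes could not be checked in these files, which measure no expression. No column of samples outside the series was found.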

Additional observations from a re-analysis of the deposited data

Results flagged for a closer look

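The comparison with OreR differed between the last and the first window at 12 pairs of region and mutant, by the Wald test of the difference between the deposited log2 fold changes, two-sided and adjusted over all tested regions. In zld- the difference of the last minus the first window was -1.39 at sog_shadow, -1.29 at Cyp310a1_Ozdemir, -1.25 at wntD_Zeitlinger, -1.06 at shn, -1.03 at zen_dist_Doyle, -0.88 at vn, -0.86 at tld_Kirov and -0.80 at VT36350_Kvon. The adjusted p of these 8 ranged from 8.00e-07 at Cyp310a1_Ozdemir to 0.0312 at tld_Kirov. At CG8788_Sandmann the difference in zld- was 0.72, with an adjusted p of 0.0334, and with the trend against mean normalized count removed it was 0.54, with an adjusted p of 0.15, so the call was lost. The first window of zld- holds the list of 6831 peaks, whose part in these differences was not tested.

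In gd7 the difference was -1.32 at Cyp310a1_Ozdemir, from -0.41 to -1.73, and 0.58 at mir-1_Zeitlinger, from -1.22 to -0.64, with adjusted p of 1.52e-05 and 0.0282. In cic6 it was -0.85 at meltrin, from 0.83 to -0.02, with an adjusted p of 0.0324, and with the trend removed it was -0.54, with an adjusted p of 0.52, so this call was lost too. The OreR libraries of a window are shared by the mutants, so the difference at Cyp310a1_Ozdemir in zld- and gd7 was not measured independently.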

How the results depend on the processing

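The depth and the counts per library are unknown, so alternatives on the tables leave out no library. No paired analysis was possible because the tables hold comparisons and no values per library.

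Counts are summed over windows for dorsal, neuroectoderm and ventral regions in this order. The shares of all tested regions under the size cut and the 0.01 threshold are not given here. The counts are therefore to be read only against those as deposited. With a log2 fold change of at least 1 in size, the calls as lower in zld- were 26, 27 and 36. In gd7 1 dorsal region was then higher, 1 neuroectoderm and 4 ventral were lower and 0 ventral higher, and in cic6 1, 1 and 1 were higher and 0 neuroectoderm and 0 ventral lower. At an adjusted p threshold of 0.01, 10 dorsal and 0 ventral calls as higher were left in gd7, and 0 neuroectoderm and 1 ventral as lower in cic6. That ventral count was also 1 with centring on the median of all tested regions and with adjustment over all windows together.

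With the trend removed, gd7 gave 1 dorsal call as lower, 7 dorsal and 0 ventral as higher and 24 ventral as lower, and cic6 gave 7, 2 and 5 as higher with 2 dorsal and 2 neuroectoderm as lower. The medians in cic6, averaged over windows, were 0.15, -0.034 and 0.062. In cic6 at 2 to 2.5 h the sign of 15 named regions turned: Ance_Rusch became -0.24, Mef2_Ozdemir -0.17, sna_Ip -0.17, sog_shadow -0.17, twi_Jiang -0.15, sna-S_Perry -0.14, trbl_Sandmann -0.12, VT8889_Kvon -0.095, vnd_3 -0.088, SoxN_2 -0.084, sim -0.051, SoxN_1 -0.034, ths -0.019, sca_2 -0.0059 and brk_1 -0.0042. Without the 1 to 1.5 h window, chosen after the data were seen, 7 ventral calls as lower were left in gd7.

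Between the last and the first window, zld- had 15 lower and 0 higher with the trend removed and 0 higher at a threshold of 0.01, so the call at CG8788_Sandmann was lost both ways. At that threshold gd7 had 0 higher, without mir-1_Zeitlinger, and cic6 0 lower, without meltrin, and with the trend removed cic6 again had 0 lower. The shares of all tested regions under these settings are not given here, and the cause of these changes was not tested.

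For the share of regions with a peak, lists of equal length gave 6.58 percentage points for gd7 minus OreR at dorsal regions. For cic6, the summit rule gave 1.75 at dorsal and -1.80 at ventral regions, and the rule of at least 50% of the peak inside gave -0.45 at ventral regions. Leaving out 1 replicate number of OreR or of the mutant gave -15.8 to -4.61, -14.9 to -0.60 and -12.6 to -2.82 in zld-, -0.44 to 1.54, -2.98 to 0 and -1.13 to -0.79 in gd7, and 0 to 0, 0 to 0 and 0 to 0.68 in cic6. In zld- the values nearest 0 were those without replicate 3 and the lowest those without replicate 2. The gd7 values at dorsal and neuroectoderm regions also moved by over 1.5 times with the libraries left out, and the dorsal one turned negative without OreR replicate 1. No alternative in which calls were recounted gave a dorsoventral region called higher in zld-.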
